A study of Mus musculus with 6 samples.

Results

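The ovarian surface epithelium is the simple layer of cells that covers the ovary. Its genes were followed here through 9 named genes, Upk3b, Krt7, Krt8, Krt18, Krt19, Msln, Muc16, Lrrn4 and Aldh1a7, which were found by gene symbol among the 48709 genes of the count table. All 9 had a row, and all 9 passed the filter on low counts that kept 20167 genes for testing. The data are counts of polyadenylated RNA from ovaries of CD1 mouse embryos at 13.5 dpc (days post coitum), in 3 control and 3 APAP + IBU libraries. Dams of the exposed group received by gavage acetaminophen (APAP, 30 mg/kg per day) and ibuprofen (IBU, 15 mg/kg per day), the drugs alternating every 3 h over 4 gavages a day, from 10.5 to 13.5 dpc. Control dams received the diluent alone, which held ethanol. Sample titles of this group mention only IBU, but its exposure label lists both drugs. Each library came from its own pool of gonads, so that a value is the average of many embryos of a few litters.

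The surface epithelium arises from the coelomic epithelium, the mesothelial lining that first thickens into the gonad and also gives rise to supporting cells. It is an unusual epithelium, since it keeps mesothelial features beside simple keratins. Keratins form filaments only as pairs of a type I and a type II chain. Krt8 and Krt7 are type II chains, and Krt18 and Krt19 are their type I partners. Krt8 and Krt18 are the first keratins of the embryo and occur in most simple epithelia, including mesonephric ducts and liver. Upk3b, a uroplakin, Msln, which encodes the surface protein mesothelin, and Muc16, a very large membrane mucin that binds mesothelin, mark mesothelium more narrowly. Lrrn4, a leucine-rich repeat membrane protein, is known from mesothelium and nervous tissue, and Aldh1a7 is a rodent aldehyde dehydrogenase closely related to the retinaldehyde dehydrogenase Aldh1a1.

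In the GRCm38 assembly the 4 keratins lie on 2 chromosomes. Krt7 (chr15:101411043-101430313, plus strand), Krt8 (chr15:101996698-102004482, minus strand) and Krt18 (chr15:102028180-102032027, plus strand) share a keratin cluster, while Krt19 (chr11:100140810-100148665, minus strand) lies in the type I cluster. Krt8 and Krt18 are head-to-head neighbours whose starts flank an interval of 23697 bp with 0 annotated genes wholly inside it. Krt7 is 566384 bp from Krt8, and 21 other keratin genes lie between them. The other members are spread over Upk3b (chr5:136038496-136046487, plus strand), Msln (chr17:25748613-25754378, minus strand), Muc16 (chr9:18495455-18674530, minus strand), Lrrn4 (chr2:132868305-132880891, minus strand) and Aldh1a7 (chr19:20692953-20727562, minus strand). All are protein-coding genes, and the counts were made over their exons.

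The promoters of Krt7, Krt8 and Krt18 are shown because these were the 3 members whose levels lay closest to each other across the libraries. Each sequence runs from 250 bases before to 50 bases after the annotated start and was taken from RefSeq on GRCm38.p6. Capitals mark the letters of a searched motif on either strand.
Krt7 (chr15:101412153-101412452, plus strand): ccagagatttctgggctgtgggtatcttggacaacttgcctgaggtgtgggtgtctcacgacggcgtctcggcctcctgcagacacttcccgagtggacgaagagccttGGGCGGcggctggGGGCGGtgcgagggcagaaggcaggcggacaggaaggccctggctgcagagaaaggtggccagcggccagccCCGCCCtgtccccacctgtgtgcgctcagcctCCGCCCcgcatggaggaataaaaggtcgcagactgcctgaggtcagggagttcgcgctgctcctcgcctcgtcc
Krt8 (chr15:102004293-102004592, minus strand): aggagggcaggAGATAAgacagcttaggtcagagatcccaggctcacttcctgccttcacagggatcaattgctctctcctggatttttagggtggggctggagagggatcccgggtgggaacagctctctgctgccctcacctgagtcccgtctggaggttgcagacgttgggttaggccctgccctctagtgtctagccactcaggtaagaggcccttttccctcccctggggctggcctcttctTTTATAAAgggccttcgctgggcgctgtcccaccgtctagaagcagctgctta
Krt18 (chr15:102027966-102028265, plus strand): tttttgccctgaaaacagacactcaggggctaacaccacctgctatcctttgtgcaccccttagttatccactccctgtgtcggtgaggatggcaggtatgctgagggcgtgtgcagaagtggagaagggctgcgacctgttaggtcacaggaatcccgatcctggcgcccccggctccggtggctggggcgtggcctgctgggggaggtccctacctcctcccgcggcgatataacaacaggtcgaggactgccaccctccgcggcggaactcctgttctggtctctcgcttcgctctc

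Of the 9 members, 7 had a promoter in the RefSeq table. The Krt7 promoter held 4 matches to GGGCGG, the GC box of Sp1 and KLF proteins, which 35.7% of all 32851 promoters of the same length hold. In the Krt8 promoter TATAAA was found on both strands in overlapping letters, a motif of the general start site machinery that 13.6% of all promoters hold. It also held AGATAA, bound by GATA factors and present in 11.2% of all. No searched motif was found in the Krt18 promoter. GGAATG, a TEAD motif, was found in the promoters of Upk3b and Lrrn4 and in 14.7% of all. CCAAT and TATAAA were found in the promoter of Aldh1a7, and 37.4% of all promoters hold the former. TGANTCA (AP-1, 7.81% of all), GCGTGGG (WT1 and EGR proteins, 5.04%) and CAAGGTCA (NR5A1, 1.56%) were found in 0 of the 7. The promoters of Krt7 and Krt18 held 21 and 17 CpG dinucleotides, against 6 for Krt8 and a median of 7 over all promoters. These 3 promoters therefore shared none of the 8 motifs.

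Stretches of sequence shared with other genes bear on how well the counts separate the members from other genes. The reads were 50 bases long, and 29.7% of the 50-base stretches of Krt8 also occurred in another gene, mostly in the pseudogene Krt8-ps. The count of Krt8-ps over the 6 libraries came to 4.82% of that of Krt8. For Aldh1a7 the share was 7.49%, all of it with Aldh1a1, and for Msln it was 2.89%. Upk3b, Krt19, Muc16 and Lrrn4 had no shared stretch, and Krt7 and Krt18 had 0.916% and 0.72%. The levels of Krt8 and Aldh1a7 are therefore less certain than the others. Exons of Krt7 and Krt8 overlap antisense genes over short stretches, and the strand setting of the counting is not given in the sources used here.

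Aldh1a7 and Aldh1a1 each have a coding sequence of 1503 bases, of which 126 differ, so that 91.6% are identical. The longest identical run is 100 bases. The window of 90 bases with the most differences, bases 310 to 399 counted from the first base of the coding sequence, is shown for both because reads from it can be told apart. Capitals mark the 19 bases that differ, and the sequences are those of GENCODE M21.
Aldh1a7: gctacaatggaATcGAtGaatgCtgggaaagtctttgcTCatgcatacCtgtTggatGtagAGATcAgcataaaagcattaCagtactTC
Aldh1a1: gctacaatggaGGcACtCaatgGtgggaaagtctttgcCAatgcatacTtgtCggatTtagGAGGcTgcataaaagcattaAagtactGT

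The total count per library ran from 37811968 to 48954631. Members other than Msln had 455 to 5351 counts in each library, and Msln had 24 to 496. The tissue label was checked against markers of the germ line and the supporting cells. Ddx4, a germ cell RNA helicase, had 191 to 268 CPM (a gene's count scaled to the effective size of its library by TMM), and Wnt4, a pro-ovarian signal, had 106 to 203 CPM. Foxl2, the transcription factor of granulosa cells, was low at 0.944 to 8.16 CPM. Amh, a Sertoli cell hormone, had 0.253 to 2.60 CPM. Several libraries stood apart. Both replicate 3 libraries carried more liver RNA, since the sum over a list of 20 liver genes was 2151 CPM in that of the controls and 3463 CPM in that of the exposed ovaries, and 223 to 614 CPM elsewhere. Control replicate 2 stood apart by genes of other epithelia, which are described with Msln, and by the Y-linked genes Ddx3y and Eif2s3y. Ddx3y had 2.41 CPM there against 0.284 to 0.525 CPM elsewhere, and Eif2s3y had 3.08 CPM against 0.502 to 0.944 CPM. A list of 10 testis supporting cell genes summed to 130 and 118 CPM in control replicates 1 and 2 and to 61.8 to 74.8 CPM elsewhere. Whether male tissue was in any pool was not tested. Results are given with and without the replicate 3 libraries and control replicate 2. Control replicate 1 was left out only where each library was left out in turn. No fit left out control replicates 1 and 2 together.

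Per kilobase of exon, which allows a rough comparison between genes, Krt18, Krt8 and Upk3b were the most abundant members. The length used was that of all annotated exons of a gene together. It was 7049 bases for Krt7, against 1958 for Krt8, 1437 for Krt18 and 1855 for Krt19. The place of Krt7 in the order depends on this length, and which of its transcripts were present was not tested. Krt18 had 46.3 ± 15.5 CPM per kb (SD, n = 6), followed by Krt8 at 34.1 ± 13.2 and Upk3b at 30.4 ± 5.68. Krt18 was above Krt8 in 6 of 6 libraries, while Krt8 was above Upk3b in 4 of 6. Krt19 followed at 16.6 ± 10.6 CPM per kb (SD, n = 6) and was below Upk3b in 6 of 6 libraries. Aldh1a7 at 9.68 ± 3.37, Lrrn4 at 7.14 ± 0.678 and Krt7 at 6.16 ± 1.92 CPM per kb (SD, n = 6) came next. Each of these neighbours was above the following one in only 4 of 6 libraries, so their order was within the spread. Msln at 1.06 ± 1.62 and Muc16 at 0.925 ± 0.277 CPM per kb (SD, n = 6) were the lowest. The mean of Msln rests on control replicate 2, and Msln was above Muc16 in 1 of 6 libraries. Between Krt7 and Msln the ranges did not overlap, and this was the only step in the order of which that was true.

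**Figure D1:**
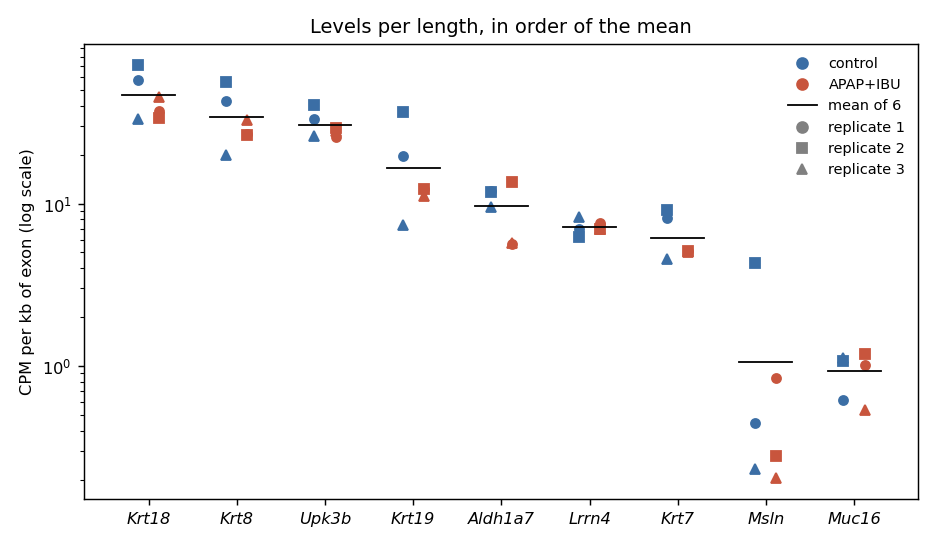
CPM per kb of exon (log scale) of each member, in order of the mean of the 6 libraries, which is drawn as a line. Symbols give the replicate and colours the group. Krt18, Krt8 and Upk3b were the highest, and Msln in control replicate 2, at 4.33 CPM per kb, stands above its other 5 libraries.

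Krt8, the type II chain of the early embryonic keratin pair, had 84.1, 110 and 39.2 CPM in control replicates 1, 2 and 3 and 52.6, 51.4 and 63.5 CPM in APAP + IBU replicates 1, 2 and 3. Its type I partner Krt18 had 82.9, 103 and 47.3 CPM in the controls and 53.0, 48.3 and 65.3 CPM in the exposed ovaries. In both genes control replicates 1 and 2 were the highest of the 6 libraries and control replicate 3 the lowest, so that the exposed libraries fell inside the range of the controls. The log2 fold change of APAP + IBU over control was -0.48 (SE 0.33, adjusted p = 0.699, 95% interval -1.23 to 0.27) for Krt8 and -0.48 (SE 0.27, adjusted p = 0.692, 95% interval -1.10 to 0.13) for Krt18. Neither difference passed the test. The intervals still hold a fall to less than 0.5 of the control level. Under a correction of all 6 libraries for exon length and GC share, these values were -0.22 for Krt8 and -0.21 for Krt18.

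Krt7, the second type II chain of simple epithelia, had 57.1, 64.0 and 31.9 CPM in the controls and 36.0, 36.1 and 35.6 CPM in the exposed ovaries. The exposed libraries differed by less than 1 CPM from each other and again lay between control replicate 3 and the other controls. Krt7 had a log2 fold change of -0.51 (SE 0.24, adjusted p = 0.692), with the smallest unadjusted p of the members, 0.0672. Krt19, a type I chain of ducts and mesothelium, had 36.3, 68.2 and 13.8 CPM in the controls and 22.9, 22.8 and 20.6 CPM in the exposed ovaries. Its control libraries spread 4.96-fold, the widest spread among the keratins, and the exposed ones lay within them. For Krt19 the log2 fold change was -0.84 (SE 0.47, adjusted p = 0.692), and with the length and GC correction it was -0.52, while that of Krt7 was -0.54.

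The 4 keratins thus shared an order among the controls, with replicate 2 above replicate 1 above replicate 3. The log2 ratio of Krt8 to Krt18 stayed within -0.27 to 0.09 over the 6 libraries, while each gene alone spread more than 2-fold (2.80-fold for Krt8 and 2.17-fold for Krt18). As a measure of likeness, the root mean square difference of the centred log2 CPM was taken over the 6 libraries. Of the 36 pairs of members, Krt8 and Krt18 were the closest at 0.123, followed by Krt7 and Krt18 at 0.142 and Krt7 and Krt8 at 0.178. Krt19 departed from them in size, and its log2 ratio to Krt8 ranged from -1.63 in APAP + IBU replicate 3 to -0.69 in control replicate 2. These likenesses describe 6 libraries that share groups and composition.

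Among 16062 genes searched, the 5 whose profile over the 6 libraries lay nearest to the mean profile of Krt8 and Krt18 were S100a16, a calcium-binding protein, Gm19426, Gm12350, Nbl1, a secreted BMP antagonist, and Rab33a, a small GTPase. Their distances were 0.0868, 0.0984, 0.105, 0.107 and 0.113. S100a16 had 40.2, 51.0 and 23.8 CPM in the controls and 27.1, 23.0 and 33.3 CPM in the exposed ovaries, the same order of libraries among the controls as the keratins. Krt7 ranked at 34 in this search. Upk3b ranked at 1153, and Lrrn4 at 10318.

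**Figure D2:**
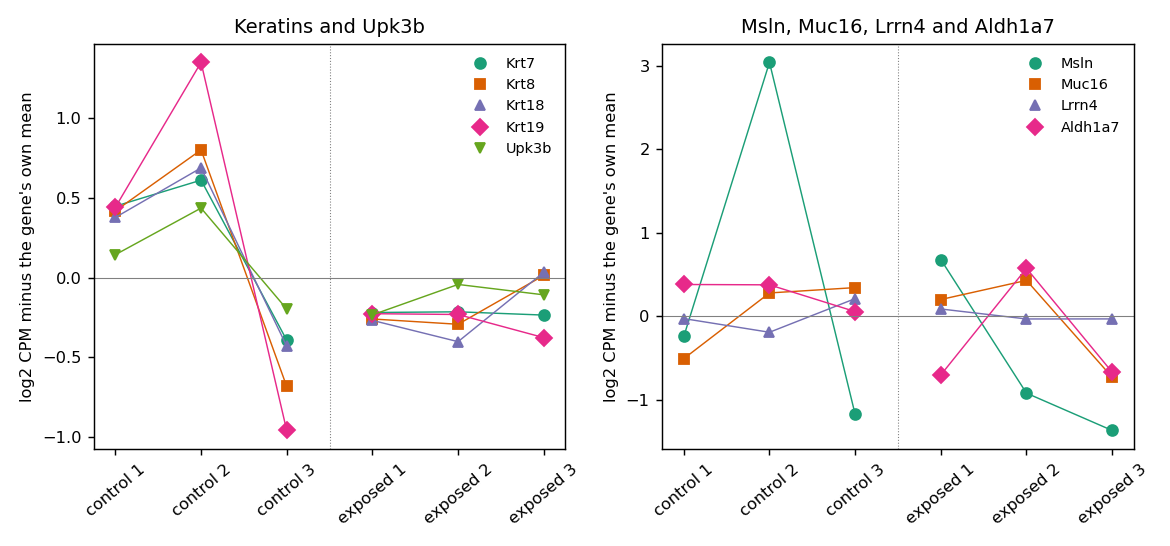
Log2 CPM of each member minus its own mean over the 6 libraries, with keratins and Upk3b on the left and the other members on the right (the vertical scales differ). Lines join the libraries of a group and stand for no order. Krt7, Krt8, Krt18 and Krt19 are high in control replicates 1 and 2 and low in control replicate 3, while Lrrn4 is nearly level and Msln is highest in control replicate 2 and next highest in exposed replicate 1.

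Upk3b, the most highly counted member, had 117, 143 and 92.4 CPM in the controls and 90.1, 103 and 98.3 CPM in the exposed ovaries. Its whole spread was 1.59-fold, and APAP + IBU replicates 2 and 3 were above the lowest control. The log2 fold change of Upk3b was -0.28 (SE 0.17, adjusted p = 0.698, 95% interval -0.67 to 0.11). Lrrn4 was the steadiest member, with 25.9, 23.1 and 30.6 CPM in the controls and 28.0, 25.8 and 25.8 CPM in the exposed ovaries. The groups had means of 26.5 ± 3.77 and 26.6 ± 1.28 CPM (SD, n = 3 each). Lrrn4 had a log2 fold change of 0.0018 (SE 0.15, adjusted p = 0.997), with a 95% interval of -0.35 to 0.35, the narrowest of the 9. Its direction turned under several alternatives, all of them close to 0.

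Muc16 had 16.4, 28.3 and 29.5 CPM in the controls and 26.8, 31.4 and 14.03 CPM in the exposed ovaries. Low values occurred in 1 library of each group, control replicate 1 and APAP + IBU replicate 3, and the groups overlapped almost fully. For Muc16 the log2 fold change was -0.04 (SE 0.33, adjusted p = 0.970), and its sign turned when several of the libraries were left out. With the length and GC correction the value of this gene, whose exons span 26350 bases, was -0.43 with all 6 libraries (SE 0.22, adjusted p = 0.548) and -0.30 with replicates 1 and 2 only (SE 0.18, adjusted p = 0.302). Aldh1a7 had 24.5, 24.5 and 19.6 CPM in the controls and 11.6, 28.0 and 11.8 CPM in the exposed ovaries. APAP + IBU replicates 1 and 3 were below every control, and APAP + IBU replicate 2 was above every control. Its log2 fold change was -0.41 (SE 0.34, adjusted p = 0.719). Without APAP + IBU replicate 2 it was -0.97 (unadjusted p = 0.0019, adjusted p = 0.497), and it was -0.21 without APAP + IBU replicate 1 and -0.23 without APAP + IBU replicate 3. Aldh1a1 had 155, 180 and 130 CPM in the controls and 126, 169 and 88.7 CPM in the exposed ovaries, also highest among the exposed in replicate 2. Pdpn, a mesothelial surface glycoprotein picked out after its values were seen, had 34.2, 58.8 and 33.6 CPM in the exposed ovaries, again highest in replicate 2. Pdpn was chosen for these values and is no independent support. Among the other members, Upk3b, Krt7 and Muc16 were also highest among the exposed in replicate 2. Krt8, Krt18, Krt19, Msln and Lrrn4 were not.

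Msln was the member with the fewest reads. It had 52, 496 and 31 counts in the controls and 131, 39 and 24 counts in the exposed ovaries, which is 1.36, 13.3 and 0.714 CPM and 2.58, 0.852 and 0.625 CPM. Control replicate 2 was 5.14 times as high as the next library, and the other 5 libraries of the 2 groups were interleaved. The log2 fold change was -1.90 (SE 1.06, adjusted p = 0.692, 95% interval -4.34 to 0.53), and without control replicate 2 it was 0.39, in the opposite direction. Msln therefore did not follow Upk3b, with a log2 ratio of Msln to Upk3b from -7.30 to -3.43 across libraries.

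Control replicate 2 also held the highest level of Upk3b, Krt7, Krt8, Krt18 and Krt19. In the same library Krt5, a keratin of basal cells in stratified epithelia, had 57.8 CPM against 2.54 to 9.84 CPM elsewhere, and Upk3bl, a relative of Upk3b, had 6.83 CPM against 0.0873 to 0.625 CPM. A list of 16 genes of stratified and urinary tract epithelium, drawn up after the data were seen, summed to 179 CPM there and to 23.4 to 40.9 CPM in the other 5 libraries. Because the list was chosen with these values known, its sum describes this library and is no independent test. Within that list Gabrp, a GABA receptor subunit of several epithelia, had 50.9 CPM against 0.742 to 2.88 CPM, while Trp63, the master regulator of stratified epithelium, was level at 1.09 to 1.84 CPM. None of the 16 was at 0 in all libraries, and Krt13 and Psca reached 0.696 and 2.41 CPM in control replicate 2. The part of this RNA in the levels of Msln and the keratins was not tested. Without control replicate 2 the log2 fold changes were -0.14 for Krt8, -0.23 for Krt18, -0.31 for Krt7, -0.18 for Krt19 and -0.11 for Upk3b, with adjusted p from 0.9804 to 0.9811.

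**Figure D3:**
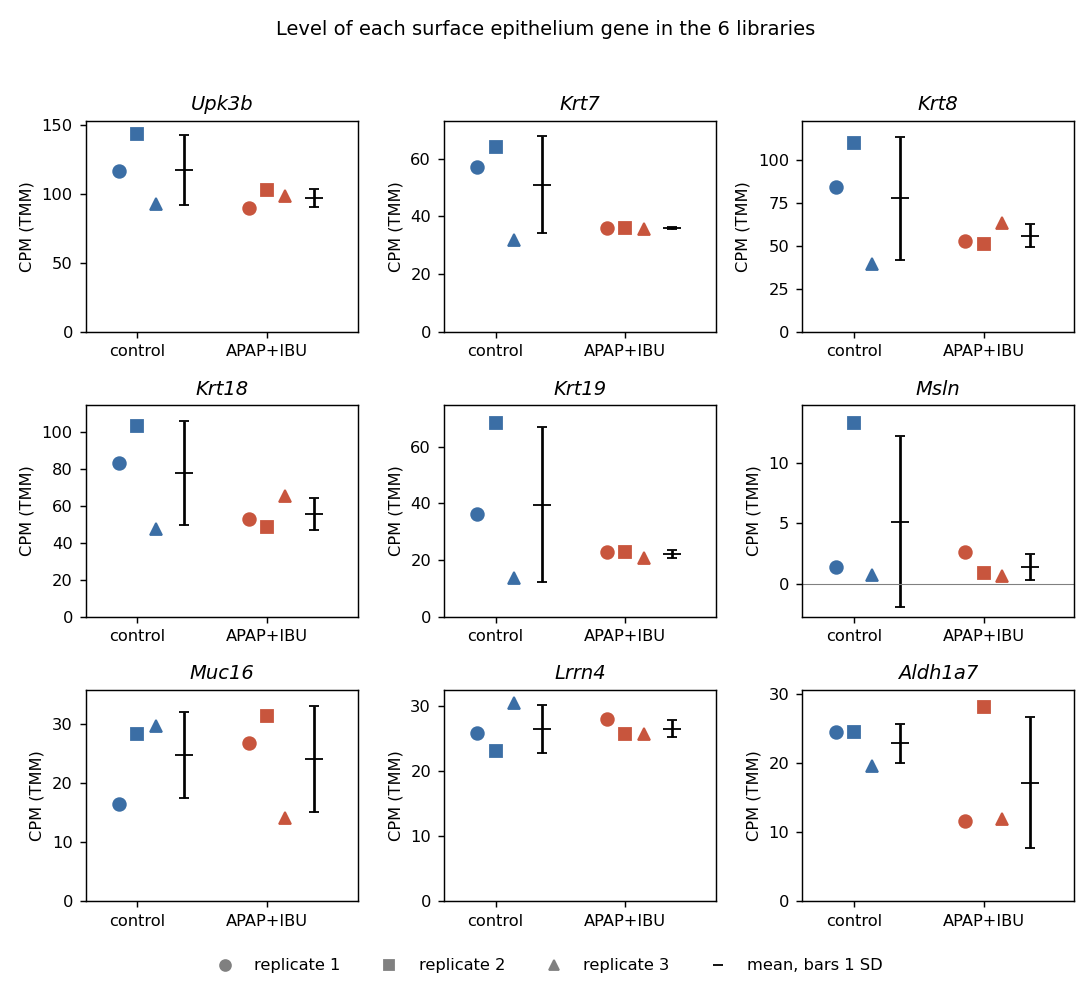
CPM of each member in control and APAP + IBU libraries, with the mean and 1 SD of the 3 libraries beside the points and with symbols for the replicates. The exposed libraries of Krt7 sit at 35.6 to 36.1 CPM, inside a control range of 31.9 to 64.0 CPM, and Msln has 13.3 CPM in control replicate 2 and at most 2.58 CPM elsewhere.

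Over all 6 libraries, 0 of the 9 members passed an adjusted p of 0.05 in edgeR's quasi-likelihood test, where 0.0% of the 20167 tested genes passed. At an unadjusted p under 0.05 there were also 0 members, against 6.22% of all genes, and DESeq2 called 0 members and 0.952% of all genes. Of the members, 8 had a negative log2 fold change. Their median was -0.48, beside -0.0047 over all tested genes, of which 50.6% were negative. The CPM of the groups overlapped in all 9, while 10.7% of all genes had groups that did not overlap. Exact two-sided permutation tests of log2 CPM gave p from 0.3 for Upk3b to 1.0 for Lrrn4, with 0.1 the smallest p that 3 against 3 libraries allow. In whole tissue, fewer surface epithelial cells and less RNA per cell cannot be told apart.

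With replicates 1 and 2 of each group only, which leaves out the libraries with much liver RNA, 5 of the 9 members passed the test, all of them lower in the exposed ovaries, where 12.9% of 20633 tested genes were called lower. They were Krt7 (log2 fold change -0.73, SE 0.10, adjusted p = 0.00661), Krt18 (-0.85, SE 0.13, adjusted p = 0.00688), Krt8 (-0.88, SE 0.14, adjusted p = 0.00714), Krt19 (-1.17, SE 0.26, adjusted p = 0.0186) and Upk3b (-0.41, SE 0.12, adjusted p = 0.0447). In each of these genes both exposed libraries were below both controls, a pattern that 35.6% of all genes showed in these 4 libraries. Muc16 (0.40, adjusted p = 0.2502), Lrrn4 (0.16, adjusted p = 0.380), Aldh1a7 (-0.29, adjusted p = 0.561) and Msln (-2.06, adjusted p = 0.145) did not pass. After each library was also corrected for gene length and GC content, only Krt7 was still called (-0.79, SE 0.0995, adjusted p = 0.0096), with 8.21% of all genes called lower. Krt8 then had -0.42 (adjusted p = 0.104), Krt18 had -0.36 (adjusted p = 0.144), Krt19 had -0.70 (adjusted p = 0.126) and Upk3b had -0.25 (adjusted p = 0.211). Both controls of these fits stood apart by other RNA. The testis supporting cell list summed to 130 and 118 CPM in control replicates 1 and 2. In APAP + IBU replicates 1 and 2 it summed to 73.5 and 61.8 CPM. Control replicate 2 also held the RNA of stratified epithelium genes, and control replicate 1 that of sperm maturation genes, given below. The part of this RNA in the calls was not tested.

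The result for the keratins turned on control replicate 3, the control with the most liver RNA and the lowest keratin levels. Without it, Krt7, Krt8, Krt18 and Krt19 were lower at an adjusted p of 0.0372 to 0.0456, with log2 fold changes of -0.75, -0.80, -0.74 and -1.24, where 2.26% of all genes were called lower. APAP + IBU replicate 3 had still more liver RNA. Among the exposed libraries it held the highest level of Krt8 and Krt18 and the lowest of Krt7 and Krt19. The part of the liver RNA in these levels was not tested. Liver RNA was not the only trait of control replicate 3. Its testis supporting cell list summed to 63.7 CPM, against 130 and 118 CPM in control replicates 1 and 2. The fit without control replicate 3 was not corrected for length and GC content. With all 6 libraries that correction moved Krt8 to -0.22, Krt18 to -0.21 and Krt19 to -0.52, while Krt7 stayed at -0.54. Control replicate 1 stood apart as well, by genes of sperm maturation. Prm1, a protamine, had 35.9 CPM there, 7.66 and 5.71 CPM in control replicates 2 and 3, and 0.197 to 0.789 CPM in the exposed ovaries. With control replicate 2 also set aside, APAP + IBU replicates 1 and 2 could be compared with control replicate 1 alone, on the assumption that the lone control varies like the exposed pair. In this comparison, chosen after the data were seen, 33.4% of all genes passed. Krt7 (-0.64), Krt8 (-0.67), Krt18 (-0.68) and Krt19 (-0.64) were lower and Muc16 was higher (0.85, SE 0.17, adjusted p = 0.00257, with no length and GC correction), while Upk3b (-0.25, adjusted p = 0.116) did not pass. The difference of Krt19 was thus smaller without control replicate 2, and it was then about the same size as that of the other keratins.

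**Figure D4:**
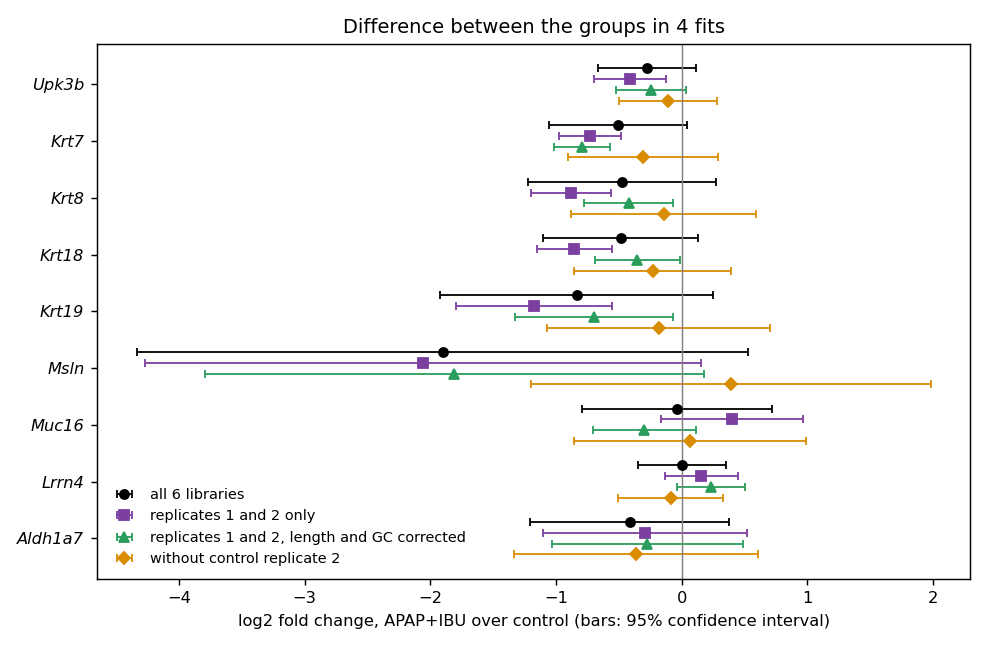
Log2 fold change of APAP + IBU over control for each member in 4 fits, with 95% confidence intervals as bars. With all 6 libraries every interval holds 0, with replicates 1 and 2 only the intervals of Upk3b and the 4 keratins lie below 0, and without control replicate 2 the point of Msln moves from -1.90 to 0.39.

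Other genes of the coelomic and ovarian surface were examined in the same fits. Of 25 such genes, all tested, 0 were called with all 6 libraries by edgeR and 0 by DESeq2, 2 had an unadjusted p under 0.05, and the median log2 fold change was -0.12. Their summed level was 1734 to 2032 CPM, lowest in APAP + IBU replicate 3 and highest in APAP + IBU replicate 2. The most abundant were Podxl, a sialomucin of coelomic cells, at 666 to 852 CPM, and Wt1, the transcription factor of the coelomic epithelium, at 251 to 301 CPM. With replicates 1 and 2 only, 3 of the 25 rose and 4 fell, close to the background of this fit, in which 14.2% of all tested genes were higher and 12.9% lower. The list and family genes of this fit, here and below, were not corrected for length and GC content. Over all genes, that correction took the number called from 5607 to 2862. Bnc2 (0.997, adjusted p = 0.00623) and Bnc1 (0.42, adjusted p = 0.0467), zinc finger proteins of mesothelium, and Lgr5 (0.87, adjusted p = 0.00632), a Wnt co-receptor of surface and supporting cells, were higher. Ptgis (-0.71, adjusted p = 0.0115), the prostacyclin synthase, Ezr (-0.40, adjusted p = 0.0175), a linker of membrane and actin, Tbx18 (-0.98, adjusted p = 0.0317) and Rarres2 (-0.45, adjusted p = 0.0419), which encodes chemerin, were lower.

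Genes that connect epithelial cells or carry keratin filaments were examined next. Of 22 epithelial adhesion and tight junction genes, 0 were called with all 6 libraries and 0 had an unadjusted p under 0.05, and the median log2 fold change was -0.22. With replicates 1 and 2 only, Spint2 (-0.75, adjusted p = 0.00625), a protease inhibitor, Cldn3 (-2.31, adjusted p = 0.0084), a claudin, Crb3 (-0.85, adjusted p = 0.0284), a polarity protein, and Epcam (-0.61, adjusted p = 0.0312), an adhesion molecule, fell. The tight junction scaffold Tjp1 rose (0.76, adjusted p = 0.00623), and the median of the list was -0.63. In this fit, 12.9% of all genes were called lower and 14.2% higher. The fold changes of the junction and desmosome genes given here were not corrected for length and GC content. Spint2 had 73.8, 69.5 and 37.0 CPM in the controls and 42.8, 41.3 and 47.4 CPM in the exposed ovaries, so that its control replicate 3 was also the lowest library. Of 18 desmosome and keratin linker genes, 0 were called with all 6 libraries and 0 had an unadjusted p under 0.05. With replicates 1 and 2 only, Evpl (-1.09, adjusted p = 0.00923), Pkp3 (-1.72, adjusted p = 0.0105) and Jup (-0.44, adjusted p = 0.0152) fell, while Dsc2 (0.46, adjusted p = 0.0205), Pnn (0.39, adjusted p = 0.0263) and Dsg2 (0.44, adjusted p = 0.042) rose. The other 12 genes of the list did not pass, among them Dsp, the main linker of desmosomes to keratins (-0.06, adjusted p = 0.821), Dsc3 (-0.41, adjusted p = 0.574) and Pkp1 (0.23, adjusted p = 0.706).

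The families of the members gave few further genes at a measurable level. Of 46 other keratin genes, 7 had a mean of 1 CPM or more and 5 had no count in any library. Krt5, at a mean of 15.5 CPM, was followed by Krt20 at 8.75 CPM, a keratin of intestinal and urothelial cells with 7.44 to 10.2 CPM per library, and by Krt14, Krt15, Krt10, Krt17 and Krt79 at 2.09 to 4.78 CPM. Krt5 was the only one of 13 tested that fell with replicates 1 and 2 (-2.81, adjusted p = 0.045), and 0 were called with all 6 libraries. With replicates 1 and 2 only, 12.9% of all genes were called lower and 14.2% higher. Among uroplakins, Upk1b had 2.94 to 7.66 CPM, Upk1a and Upk2 had means of 1.75 and 1.46 CPM, and Upk3a stayed at 0.134 CPM or less. Upk3bl, high in control replicate 2, was the uroplakin gene called lower with replicates 1 and 2 only (-3.99, adjusted p = 0.0428), and with all 6 libraries it had an unadjusted p of 0.0421 (adjusted p = 0.692). Muc1 was the only other membrane mucin above a mean of 1 CPM, with 1.10 to 1.93 CPM. In the Lrrn family Lrrn1 had 122 to 162 CPM, above Lrrn4, and with replicates 1 and 2 only it rose (0.40, adjusted p = 0.0164) while Lrrn2 fell (-0.79, adjusted p = 0.0211). The Aldh1 genes Aldh1b1, Aldh1a2 and Aldh1a1 had means of 165, 153 and 141 CPM, each above the highest value of Aldh1a7, and none of the 6 was called in either fit.

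Simple keratins are not particular to the surface epithelium, and mesonephric tissue lies beside the fetal ovary. Of 18 mesonephric duct and tubule genes, 17 were tested, 0 were called with all 6 libraries, 1 had an unadjusted p under 0.05, and the median log2 fold change was -0.09. Their sum was 310 to 370 CPM, with control replicate 3 the lowest and control replicates 1 and 2 the highest, the same order at these ends as for the keratins but over a smaller range. Pax2 and Pax8, the regulators of duct epithelium, had 2.21 to 4.58 and 10.3 to 14.5 CPM, so both were detected in every library. The cells they came from were not tested. Umod was at or near 0 in all. With replicates 1 and 2 only, where 12.9% of all genes were called lower, Wnt11, a signal of duct tips, was the only one that fell (-0.58, adjusted p = 0.0355). A list of 15 placental trophoblast genes, drawn up after the data were seen, summed to 60.2 CPM in control replicate 1, 73.3 CPM in APAP + IBU replicate 3 and 0.461 to 22.1 CPM in the other 4. These 2 libraries were also the lowest for Muc16. The part of duct or trophoblast RNA in the members' levels was not tested.

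**Figure D5:**
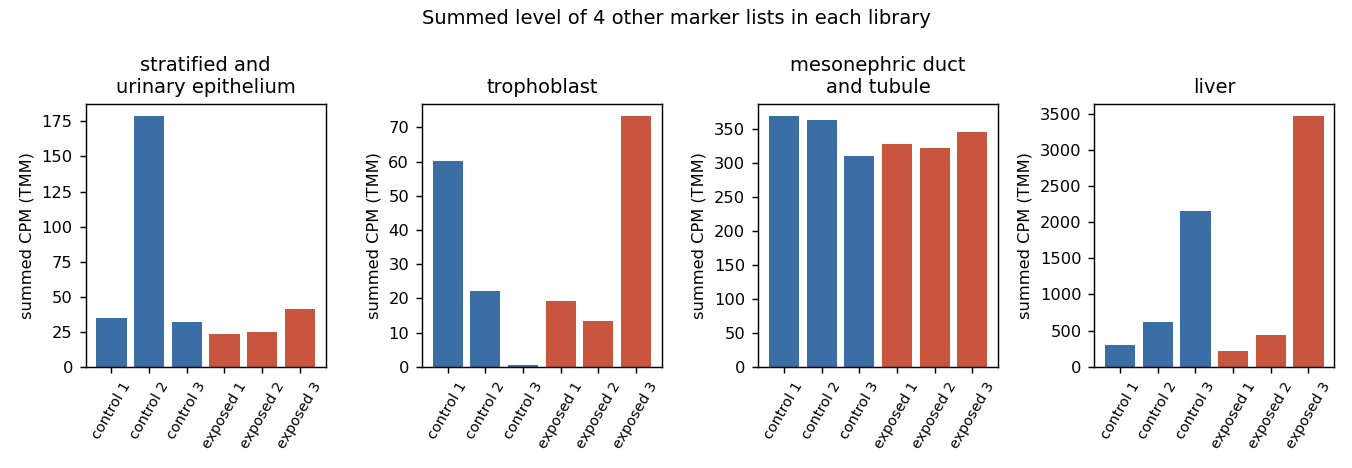
Summed CPM of 4 marker lists in each library, from left to right 16 genes of stratified and urinary tract epithelium, 15 of trophoblast, 18 of mesonephric duct and tubule and 20 of liver, each panel with its own scale from 0. The stratified and trophoblast lists were drawn up after the data were seen. The first list is high in control replicate 2 (179 CPM), the mesonephric list differs little (310 to 370 CPM), and the liver list is high in both replicate 3 libraries.

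DESeq2, too, called 0 genes in the junction, desmosome, keratin, uroplakin, mucin, Lrrn, Aldh1 and mesonephric lists. The remaining cell type lists had 0 called genes each with all 6 libraries in edgeR, and DESeq2 called 1 erythroid gene, Hba-a1, and 1 macrophage gene, Aif1, which were named after their values were seen. Their median log2 fold changes were 0.07 for gonadal supporting cells (15 genes, 3 with an unadjusted p under 0.05), -0.55 for testis supporting cells (9 tested, 2), -0.37 for germ cells (14, 1), -0.09 for stroma (15, 2), -0.21 for endothelium (12, 0), -0.60 for erythroid cells (12, 3), -0.32 for macrophages (12, 2) and 0.47 for liver (20, 1). With replicates 1 and 2 only, where 12.9% of all genes were lower and 14.2% higher, 2 of 15 gonadal supporting cell genes fell and 4 rose, and 7 of 10 testis supporting cell genes fell and 0 rose. In the germ cell list 7 of 14 fell and 3 rose, and in stroma 2 of 15 fell and 2 rose. No gene rose in the other 4 lists, in which 3 of 12 endothelial, 6 of 12 erythroid, 5 of 12 macrophage and 2 of 20 liver genes fell.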

How the data were processed

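Polyadenylated RNA of 13.5 dpc ovary pools was sequenced for 3 control and 3 exposed libraries (stranded libraries, paired reads of 50 bases). The authors mapped reads to mm10 with TopHat2 2.0.14 and Bowtie2 2.1.0, counted them per gene with HTSeq 0.6.1 on an Ensembl annotation, and deposited raw counts of 48709 genes. The deposited counts were used without change. Groups and replicate numbers come from the sample labels. Same-numbered pools hold different embryos, and the p-values measure only the spread between pools.

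Counts were scaled by TMM, filtered with filterByExpr (20167 genes kept) and tested with edgeR 4.0.16 (R 4.3.3), quasi-likelihood, with Benjamini-Hochberg adjustment over all tested genes and a threshold of 0.05. DESeq2 1.42.0 was an alternative. Log2 CPM used a prior count of 1. Loess correction for length and GC content used a span of 0.3 in each library and the 20103 tested genes that had both. Symbols, positions and exon lengths came from GENCODE M21 on GRCm38, the assembly of mm10, a different annotation from the one counted on (48349 IDs matched). A 50-base stretch counted as shared when it occurred in a transcript of another gene. Total counts ran from 37811968 to 48954631. Libraries of a group differed by a chi-square per degree of freedom of 18.8 to 158, so no pair was treated as a duplicate. The fit of 3 against 3 libraries was tested on simulated data, and the fits with fewer libraries were not. The simulated libraries were set to vary less than the real ones. The simulation therefore does not show how large a change the real libraries could reveal.

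Named genes were all 9 members, the called and most abundant genes of each list, family genes with a mean of 1 CPM or more, and the 5 nearest profiles. Alternatives were other scalings and filters, a replicate block, correction for length and GC content, replicates 1 and 2 only, and leaving out each library. The members and lists were chosen with earlier results of these data known. Of the fixed lists, Eppk1 was not matched.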

Additional observations from a re-analysis of the deposited data

How the results depend on the processing

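With all 6 libraries, the number of members past an adjusted p of 0.05 in edgeR was 0, and it stayed 0 under DESeq2, both other scalings, both other filters and the length and GC correction. It was 5 with replicates 1 and 2 only and 1 when these were also corrected for length and GC content. With 1 library left out it was 0 to 4, the 4 being without control replicate 3. Over all genes the count was 0 in the fit to all 6 libraries, 192 with DESeq2, 120 with all genes of at least 1 count, 5607 with replicates 1 and 2 only, 2862 with these and the length and GC correction, 7299 for APAP + IBU replicates 1 and 2 against control replicate 1, and 0 to 1064 with 1 library left out. The highest came without control replicate 3. The smaller number of libraries was not separated from the choice of libraries as a cause.

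With the replicate block, 2 genes of all were called, and 34 with the block and the length and GC correction, while 0 members were called. The correlations of deviations between same-numbered libraries were -0.069, -0.015 and -0.044, so no common shift over all genes was seen by number. They cannot decide whether same-numbered pools came from the same experiment, which the sources do not state. Both replicate 3 libraries were high in liver RNA.

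The sign turned for Msln, at 0.37 for APAP + IBU replicates 1 and 2 against control replicate 1 and -2.79 to 0.39 with 1 library left out. For Muc16 it turned at 0.40 with replicates 1 and 2 only and 0.85 against control replicate 1, neither of them corrected for length and GC content, and was -0.30 with that correction and replicates 1 and 2 only and -0.43 with it and all 6 libraries. It ran from -0.29 to 0.21 with 1 library left out. For Lrrn4 it turned at -0.026 with upper quartile scaling and -0.0105 with at least 10 counts in every library, and ran from -0.088 to 0.117 with 1 library left out. The length and GC correction with all 6 libraries moved Krt8 to -0.22, Krt18 to -0.21 and Krt19 to -0.52. The other 6 members stayed negative with each library left out, from -1.24 for Krt19 without control replicate 3 to -0.11 for Upk3b without control replicate 2. Why these values moved was not tested.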

Other observations

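The 5 genes nearest in profile to the mean of Upk3b, Msln, Muc16 and Lrrn4 over the 6 libraries were Angpt2, a ligand of the endothelial Tie2 receptor, Ptger3, a prostaglandin E2 receptor, Gng8, a G protein subunit, Adamts5, a matrix protease, and Dtna, a dystrobrevin. Their root mean square distances were 0.128, 0.159, 0.175, 0.175 and 0.189, against a size of the mean profile itself of 0.448. The 4 averaged profiles differed, and Msln, with the widest spread, weighs most in their mean. By the same measure Msln lay 1.34, 1.43 and 1.58 from Upk3b, Muc16 and Lrrn4, and Lrrn4 was lowest in control replicate 2. Angpt2 had 3.04, 5.84 and 3.04 CPM in the controls and 3.21, 3.21 and 1.95 CPM in the exposed ovaries, with its highest value in control replicate 2, like Msln. Krt7 ranked at 418 in this search and Krt8 at 2725.

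At a level of 2 CPM or more, control replicate 2 held 37 genes with a level at least 2 times that of every other library, and 10 with at least 4 times. The counts at these folds were 137 and 7 in control replicate 1, 3 and 1 in control replicate 3, 21 and 5 in APAP + IBU replicate 1, 4 and 0 in APAP + IBU replicate 2, and 49 and 5 in APAP + IBU replicate 3. Of the members, Msln was at least 4 times as high in control replicate 2 as elsewhere.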
